A study of Mus musculus with 23 samples.

Results

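Lymph node (LN) cells of mice with 1 edited allele of Stat5b were compared with those of wild-type (WT) mice by summing single-cell RNA counts over each whole library. The libraries were chosen by tissue, assay and title: the LN expression libraries titled Y665F het (n = 3) and WT (n = 2), which are 5 of the 16 expression libraries of the series and hold 31919 cell barcodes and 32285 genes. Mice were labelled C57BL/6 and were 2 months old, and the edit was made in C57BL/6N mice by the study's methods. The het mice carry Y665F, a tyrosine-to-phenylalanine change in the SH2 domain of the STAT5B protein, on 1 allele in every cell of the body, since it was written into the germline with CRISPR/Cas9 and a donor oligonucleotide, and the WT mice carry no edit. LN libraries of homozygous mice (homo, n = 2) entered the fits and are set beside the het values. The labels name no treatment, and T-cell receptor (TCR) libraries with the same titles name the barcodes of T cells. A figure legend of the study describes single-cell data from lymph nodes as a combined sample of several mice per group. The title of that figure and the main text name spleen instead, so this pooling may not concern the LN libraries. The labels list separate LN libraries and do not say which mouse or pool each came from. Whether they are separate mice is therefore unknown, and p-values measure the spread between these libraries, which may be in part technical.

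STAT5B is a transcription factor that waits in the cytoplasm until a cytokine receptor, such as that of IL-2, IL-7 or IL-15, activates a Janus kinase, which phosphorylates it. The phosphorylated protein forms dimers through its SH2 domain, enters the nucleus and binds a short palindromic DNA element near its target genes. In lymphoid tissue this pathway is known for the survival of T cells, the upkeep of memory CD8 and natural killer cells and the maintenance of regulatory T cells, and for restraining Bcl6, a repressor that germinal centre B cells and follicular helper T cells need.

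The edit itself lies in exon 16 of 19 of Stat5b, in the codon that Y665F names, on the minus strand of chromosome 11 (GRCm38, chr11:100787291-100787293). The stretch of the gene around the codon, the same stretch of the Y665F donor and the guide are shown because they define the designed amino acid change. Capitals mark that codon in the gene and the donor, and the bases that Cas9 needs beside its target (the PAM) in the guide, which reads the strand opposite to Stat5b.
Stat5b reference: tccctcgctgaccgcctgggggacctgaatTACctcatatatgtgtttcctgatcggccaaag
Y665F donor: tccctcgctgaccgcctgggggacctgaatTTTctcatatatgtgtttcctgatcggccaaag
guide: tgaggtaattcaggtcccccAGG
Donor and gene differed at 2 bases in this stretch, both within the codon. The study's methods also describe a silent C-to-G change meant to destroy the PAM, which the donor stretch shown does not hold, so whether the mice carry it was not settled here. The count tables give 1 value per gene, so neither allele was read in the expression data.

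Sequencing depth differed widely. WT libraries held 6697021 and 12129652 unique molecular identifiers (UMIs, which count RNA molecules rather than reads), and het libraries 16101373, 7850605 and 2621583. Homo libraries held 2733767 and 5702822 UMIs. Levels are therefore given in CPM, the UMIs of a gene scaled to a common library total. Het replicate 3 was shallow, with 96.4% of barcodes under 500 genes against at most 36.3% in the other het and WT libraries, and it stood apart from all other LN libraries on the second principal component (38.1, others −14.03 to 2.21). A count of 3 UMIs corresponds to 1.14 CPM in it and to at most 0.448 CPM in the other 4. Homo replicate 1 was shallow as well, with 95.8% of barcodes under 500 genes and 1.10 CPM for 3 UMIs. Replicate libraries differed by more than counting noise, though not equally. The chi-square of their counts per degree of freedom was 3.46 between het replicates 1 and 2. Between the other replicate pairs of a genotype it was 7.01 to 13.2, and the reason was not tested. Pairs of the 7 LN libraries shared 26 to 91 barcodes, at most 1.56% of the smaller one. Mitochondrial UMIs were 2.20% ± 0.265 (SD, n = 3) in het and 1.90% ± 0.0457 (n = 2) in WT (exact two-sided permutation p = 0.3). T-cell and B-cell markers were present in every library, while the stromal genes Ccl21a, Col1a2 and Dcn were at 0 in all 5.

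Stat5b and its neighbour Stat5a, the closest relative in the family, were examined first. Stat5b was at 81.5 and 95.3 CPM in WT and at 71.9, 67.6 and 67.1 CPM in het, while homo gave 80.5 and 78.4 CPM. All het values lay below both WT values, but the log2 fold change of −0.28 (SE 0.0971) did not pass the test over all genes (edgeR adjusted p = 0.213). In barcodes with a TCR the order was the same, with 100.1 and 109 CPM in WT against 75.1, 73.6 and 70.1 CPM in het, and there the difference of −0.43 (SE 0.0921) passed (edgeR adjusted p = 0.0372), while staying under 2-fold. Stat5a was at 31.4 and 38.7 CPM in WT and at 33.5, 29.0 and 37.8 CPM in het, so that the groups overlapped (−0.01, edgeR adjusted p = 0.994). Transcripts of Stat5b share 15.2% of their 31-base words with other genes, most of all with Stat5a. This limits how well short reads tell Stat5b and Stat5a apart.

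Of 11467 genes tested between het and WT, 71 (0.619%) were called, at an adjusted p under 0.05 by edgeR's quasi-likelihood test and a change over 2-fold, while 1676 were at an unadjusted p under 0.05. Of these, 43 (0.375%) were higher in het, among them genes of cytotoxic and memory T cells such as Ccl5, Gzmm, Ly6c2 and Cxcr3, and 28 (0.244%) were lower, among them genes of the germinal centre such as Mef2b and Gcsam. Without a minimum fold 145 genes (1.26%) passed, 88 higher and 57 lower, and DESeq2 called 84, of which 62 were among the 71. For each of the 71 the het and WT libraries did not overlap, a pattern that 9.39% of all genes tested showed with het above WT and 25.0% with het below. The number of calls depended on single libraries: it was 34 without WT replicate 1, 203 without WT replicate 2, 23 without het replicate 1, 43 without het replicate 2 and 40 without het replicate 3. Scaled by library totals alone, 26 of 67 calls were higher and 41 lower. In summed counts of this kind, fewer cells of a type and less RNA per cell cannot be told apart.

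**Figure D1:**
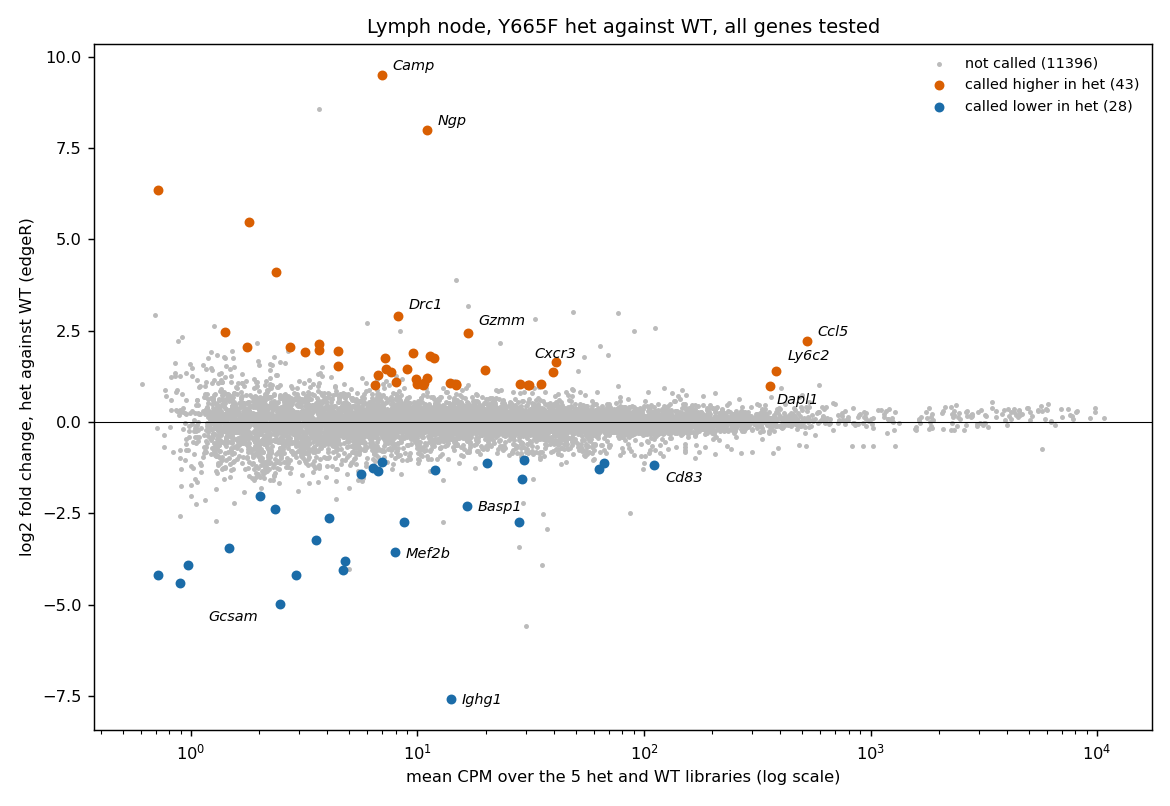
Log2 fold change of het against WT (y axis) against the mean level over the 5 libraries in CPM (x axis, log scale), with 1 point per gene tested. The 43 genes called higher (orange) and 28 called lower (blue) include Ccl5 and Ly6c2 at a high level, while 27 of the 71 had a mean under 10 CPM in the higher group.

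Ccl5, a chemokine that memory CD8 and natural killer cells store and release, had the highest mean level in het of the genes called. It was at 179 and 164 CPM in WT, at 791, 561 and 922 CPM in het, with 1391 and 1549 CPM in homo. All het libraries lay above both WT libraries, though they differed widely among themselves, and the log2 fold change was 2.22 (SE 0.191, edgeR adjusted p = 0.000958). Gzmm, which encodes a granule protease of killer cells, was at 4.93 and 4.37 CPM in WT and at 23.7, 17.96 and 32.4 CPM in het. It rose by 2.45 on the log2 scale (SE 0.236, edgeR adjusted p = 0.00159), again with no overlap.

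Ly6c2, a surface protein of memory CD8 T cells, was at 208 and 197 CPM in WT and at 546, 475 and 494 CPM in het, both groups being tight and well separated (1.39, SE 0.107, edgeR adjusted p = 0.000958). Its transcript shares 23.7% of its 31-base words with other genes, most of all with the neighbouring Ly6c1. Reads of Ly6c2 and Ly6c1 may therefore have been split between them. Cxcr3, the receptor that guides T cells to inflamed tissue, was at 20.8 and 21.8 CPM in WT and at 54.1, 47.5 and 53.8 CPM in het (1.36, SE 0.111, edgeR adjusted p = 0.000958). Het was above WT in all 3 libraries for both genes.

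A transcription factor gene, a cytokine gene and the genes of a cytokine receptor were called higher as well. Tbx21, which encodes the T-bet factor of effector cells, was at 12.4 and 8.16 CPM in WT and at 26.4, 21.5 and 30.5 CPM in het (1.44, SE 0.213, edgeR adjusted p = 0.0175). Ifng, which encodes interferon gamma, was at 2.99 and 3.46 CPM in WT and at 12.3, 10.2 and 6.87 CPM in het (1.76, SE 0.245, edgeR adjusted p = 0.0132). In the WT libraries neither gene reached its lowest het value. Part of the Ifng transcript (22.6% of its 31-base words) also occurs in other genes, most of all in Gm49751. The antisense neighbour of Ifng, Ifngas1, was called too (1.54). Il18r1 and Il18rap, the subunits of the IL-18 receptor, rose by 1.04 (edgeR adjusted p = 0.00545) and 1.20 (edgeR adjusted p = 0.0345).

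The list of cytotoxic and memory CD8 markers was written with earlier results of these data known, so its count is no independent evidence. Of its 31 genes, all tested, 8 were called higher (Ccl5, Gzmm, Cxcr3, Tbx21, Il18r1, Il18rap, Ly6c2 and Ifng) and 0 lower. Of all genes tested, 0.375% were called higher. By the adjusted p alone 13 of the list passed, all higher. Those 5 further genes were Nkg7 (0.93) and Cst7 (0.99), both of cytotoxic granules, Eomes (0.94), a factor of memory cells, Ctsw (0.73), a protease, and Il2rb (0.93), the receptor chain shared by IL-2 and IL-15. The list median was 0.93, beside 0.0027 over all genes tested, and its summed level ran from 1306 to 1354 CPM in WT, from 2445 to 3037 CPM in het and from 3777 to 4079 CPM in homo. Not all cytotoxic genes took part: Gzma was at 39.0 and 22.3 CPM in WT and at 22.4, 14.01 and 24.0 CPM in het, and Gzmb (0.55, edgeR adjusted p = 0.728) and Prf1 (0.51, edgeR adjusted p = 0.0734) did not pass. Markers of natural killer cells, which share many of these genes, had a median of −0.53 over 9 tested members with 0 called.

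The share of T cells and of CD8 T cells bears on these sums. Barcodes with a TCR beta chain were 49.8% and 64.9% of all barcodes in WT and 72.3%, 66.7% and 71.0% in het, a difference of 12.6 percentage points (exact two-sided permutation p = 0.1, the smallest that 3 against 2 libraries allow). The lowest het share was only just above the higher WT share, and with both an alpha and a beta chain required the groups overlapped, at 42.7% and 55.0% in WT and 63.4%, 53.96% and 62.3% in het (exact two-sided permutation p = 0.3). Cd8a and Cd8b1, the chains of the CD8 co-receptor, rose by 0.65 (edgeR adjusted p = 0.0208) and 0.74 (edgeR adjusted p = 0.0182), under 2-fold. Of the 16 T-cell markers 1 passed the adjusted p, Thy1, and their median was 0.35, while Cd4 and Cd40lg of CD4 T cells had a median of −0.11 with 0 passing. The part of these shares in the calls was not tested beyond separate sums of the barcodes with a TCR.

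**Figure D2:**
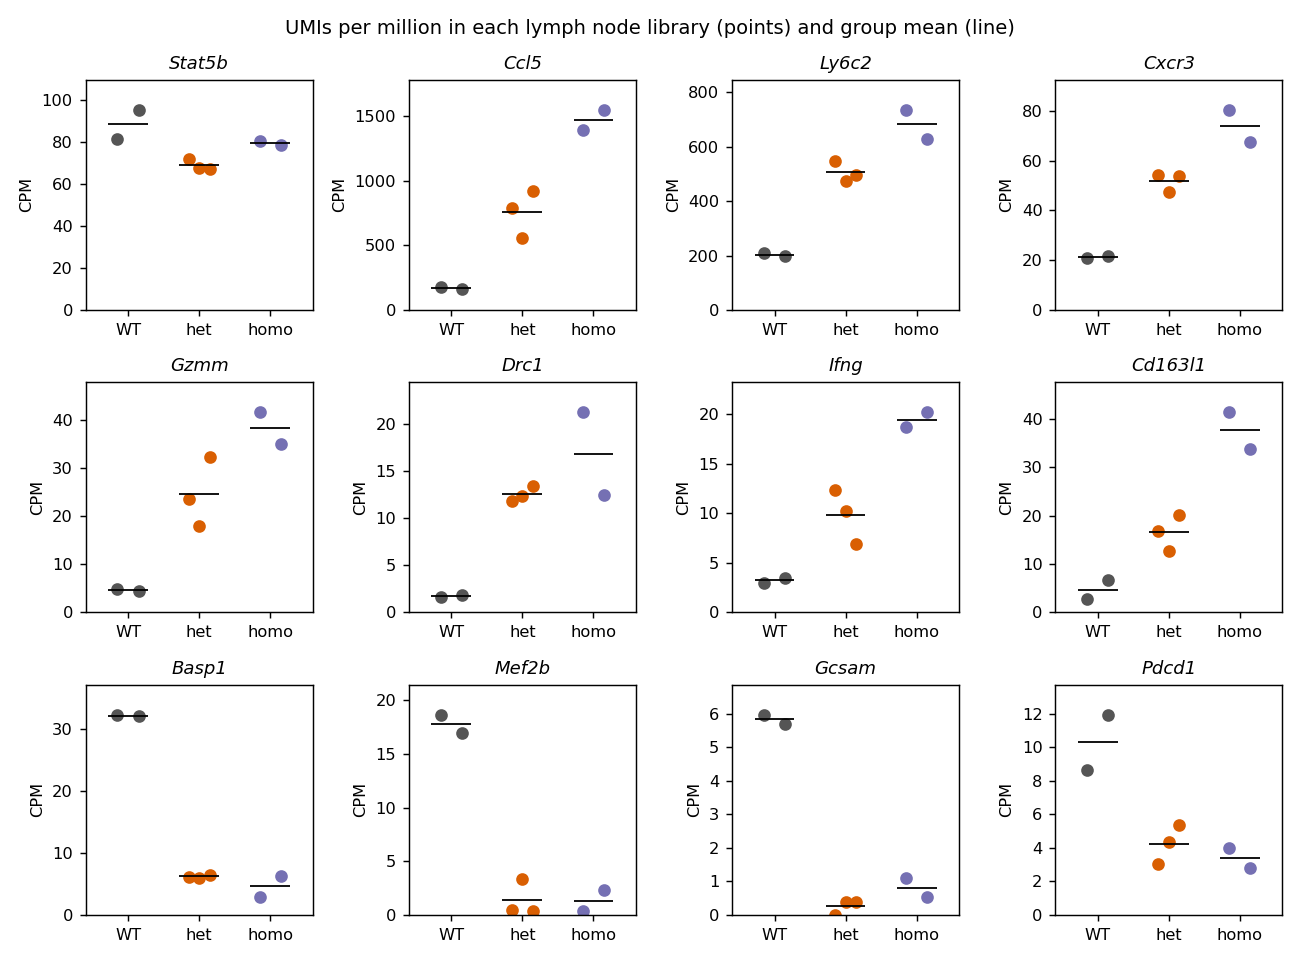
CPM in each LN library (y axis, from 0) by genotype (x axis: WT, 2 libraries; het, 3; homo, 2), 1 panel per gene, with a line at the group mean. For Ccl5 to Cd163l1 all het points lie above both WT points, for Basp1 to Pdcd1 all lie below, and Stat5b lies slightly lower in het without passing the test.

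Genes tied to STAT5 gave a mixed picture. The list of STAT5 targets and feedback inhibitors had 24 of 26 members tested and a median of 0.25. By the adjusted p alone 6 members were higher and 1 lower, while 1.26% of all genes tested passed in either direction. Called were 3 members higher (Drc1, Xdh and Cd163l1) and 0 lower, beside 0.375% of all genes tested called higher. All 3 were known to move in earlier results of this series when the list was written, so their count is no independent evidence of a direction. Drc1, which encodes a part of the regulatory complex of cilia, was at 1.64 and 1.81 CPM in WT, at 11.8, 12.4 and 13.4 CPM in het, with 21.2 and 12.4 CPM in homo. The 3 het values nearly coincided and were far above WT (2.89, SE 0.259, edgeR adjusted p = 0.000982). Cd163l1, a scavenger receptor known from gamma-delta T cells, was at 2.69 and 6.68 CPM in WT and at 16.9, 12.6 and 20.2 CPM in het (1.76, SE 0.292, edgeR adjusted p = 0.0255). Its change ran from 1.37 to 2.63 over the alternatives tried, and it missed the adjusted p in 6 of 18. Xdh, xanthine dehydrogenase, rose by 1.08 (edgeR adjusted p = 0.0145), and shares 11.1% of its words with other genes, most of all with Gm44873.

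Known response genes of STAT5 did not move as a block. The survival gene Bcl2 rose by 0.80 (edgeR adjusted p = 0.0357) and Myc, which drives cell growth, by 0.57 (edgeR adjusted p = 0.0418), both under 2-fold. The feedback inhibitors did not pass: Cish was at 13.0 and 23.0 CPM in WT and at 28.1, 22.3 and 21.4 CPM in het, with overlapping groups (0.50, edgeR adjusted p = 0.359), and Socs2 was at 0.32 (edgeR adjusted p = 0.661). Il2ra, the high-affinity IL-2 receptor chain, was at −0.09 (edgeR adjusted p = 0.896). Bcl6, which activated STAT5 is known to repress, was at 37.9 and 35.2 CPM in WT and at 18.4, 20.8 and 18.3 CPM in het, a fall of 0.84 on the log2 scale (SE 0.120) that passed at an edgeR adjusted p of 0.0145. In the pathway itself, 1 of 28 genes of the JAK-STAT list passed the adjusted p (Il2rb), 0 were called, and the median was 0.05.

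Further named genes called higher came from several groups. 5830411N06Rik, like Cd163l1 a scavenger receptor gene of the gamma-delta list, rose by 1.89 (edgeR adjusted p = 0.00604). Of that list 2 of 9 tested members were called, beside 0.375% of all genes tested called higher. The list did not move as a whole: its median was 0.11, with 5 members above 0. Its summed level overlapped, from 69.6 to 91.1 CPM in WT and from 73.9 to 87.0 CPM in het. Samd3 rose by 1.80 (edgeR adjusted p = 0.00335) and Ifitm10 by 1.65 (edgeR adjusted p = 0.000958). Myo6, an unconventional myosin, rose by 1.44 (edgeR adjusted p = 0.00898). Dapl1, a gene of naive T cells, was at 226 and 243 CPM in WT and at 465, 482 and 381 CPM in het (1.001, SE 0.168, edgeR adjusted p = 0.0261), the only one of 16 naive T-cell genes called. Among 24 homing and chemokine receptors, Gpr15 (1.94, edgeR adjusted p = 0.0197) was called beside Cxcr3. Gm26771 (1.36) is annotated antisense to Sfrp2, and as the counting strand was not given in the sources used here, its reads cannot be assigned with certainty. Dlg5 (2.05) and 2610035D17Rik (1.02), both on the list of genes called earlier in T-cell classes of these libraries, were called as well. That list had 8 of 21 members called higher, beside 0.375% of all genes tested, and a median of 0.83. These values are no independent evidence, since the list came from the same libraries. Over the alternatives tried, Dlg5 missed the adjusted p in 9 of 17, Gpr15 in 6 of 17, Gm26771 in 9 of 18 and Il18rap in 10 of 18. The lowest change of Gpr15 among them was 0.93, under 2-fold.

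Camp and Ngp, granule proteins of immature neutrophils, had the largest fitted changes of the named genes and came from few molecules. Camp had 0 UMIs in both WT libraries and 315 over the het libraries, at 13.4, 8.41 and 13.0 CPM, which is at least 33.3-fold higher against a floor of 3 UMIs per WT library. Ngp had 1 UMI in WT and 395 in het, at 14.7, 10.2 and 30.1 CPM, a ratio of 280 (95% counting interval 49.9 to 11081). In homo the values were 8.78 and 0 CPM for Camp and 14.6 and 0 CPM for Ngp, so that 1 homo library resembled WT. Of the 11 neutrophil markers these 2 were called (edgeR adjusted p = 0.0374 for Camp and 0.0462 for Ngp), beside 0.375% of all genes tested called higher. S100a8 (0.31, edgeR adjusted p = 0.917) and S100a9 (0.20, edgeR adjusted p = 0.959), the abundant granulocyte genes, were not called. Camp missed the adjusted p in 6 of the 18 alternatives tried and Ngp in 8 of 18. The summed neutrophil markers were at 23.7 and 201 CPM in WT and at 134 to 197 CPM in het, so the groups overlapped, and their median was 1.14. The part of the number of neutrophils caught per library in this result was not tested.

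On the other side stood genes of the germinal centre, where B cells mutate and select their antibodies. The list of these genes was written with earlier results of these data known, so its count is no independent evidence. Of 9 tested genes of that list 6 were called lower, 0 higher, and 1 more (Bcl6) passed the adjusted p. Of all genes tested, 0.244% were called lower. The list median was −1.34, beside 0.0027 over all genes tested. Its summed level was 174 and 168 CPM in WT and 69.5 to 82.3 CPM in het. Il21 was too low to be tested. Mef2b, a factor that activates Bcl6 in these cells, was at 18.7 and 16.98 CPM in WT and at 0.497, 3.31 and 0.381 CPM in het (−3.56, SE 0.547, edgeR adjusted p = 0.0191). Its WT libraries were close to each other and far above all het libraries. DESeq2 gave an adjusted p of 0.0876 for Mef2b, so this call did not hold under both tools. Exons of Mef2b overlap Borcs8, so reads of this pair cannot be told apart with certainty, with 2.26% of the 31-base words of Mef2b shared with other genes.

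Gcsam, a signalling protein of germinal centre B cells, was at 5.97 and 5.69 CPM in WT and at 0, 0.382 and 0.381 CPM in het (−4.99, SE 0.622, edgeR adjusted p = 0.00804), and here DESeq2 gave an adjusted p of 8.92e-06. Rgs13, a brake on chemokine signalling, changed by −3.23 (edgeR adjusted p = 0.0357) and S1pr2, the receptor that keeps B cells inside the follicle centre, by −1.26 (edgeR adjusted p = 0.0256). Pdcd1, the inhibitory receptor PD-1 that follicular helper T cells display, was at 8.66 and 12.0 CPM in WT and at 3.04, 4.33 and 5.34 CPM in het (−1.34, SE 0.256, edgeR adjusted p = 0.0415). The lowest WT value was above the highest het value for each of these 4 genes. Over the alternatives tried, however, Pdcd1 missed the adjusted p in 11 of 17, Rgs13 in 10 of 17 and S1pr2 in 6 of 17. Nuggc (−4.19) and Mybl1 (−2.61), known from the same B cells, were also called but belong to no list, and were picked out after their values were seen.

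Basp1, a membrane protein, was called lower with replicates that lay close together. It was at 32.3 and 32.0 CPM in WT, at 6.15, 5.99 and 6.48 CPM in het, with 2.93 and 6.31 CPM in homo. Spread within WT and within het was under 1 CPM, against a difference of −2.30 (SE 0.182, edgeR adjusted p = 0.000958). Ighg1, the constant region of IgG1 antibodies, was at 24.5 and 44.1 CPM in WT and at 0, 0 and 1.53 CPM in het (−7.58, SE 0.664, edgeR adjusted p = 0.000958; DESeq2 adjusted p = 0.115). It was 1 of 7 immunoglobulin genes among the 28 called lower.

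Further named genes called lower were in none of the gene lists. Cd83, which stabilises MHC class II on activated B cells and dendritic cells, was at 203 and 138 CPM in WT and at 57.9, 79.7 and 76.7 CPM in het (−1.19, SE 0.208, edgeR adjusted p = 0.0327). The spread between its WT libraries was wide, yet both were above all het libraries. Marcks, a substrate of protein kinase C, changed by −1.13 (edgeR adjusted p = 0.0255), Nav2 by −1.10 (edgeR adjusted p = 0.0477; DESeq2 adjusted p = 0.0505), Gm19951 by −1.31 and the linker histone gene H1fx by −3.81 (DESeq2 adjusted p = 0.326). Gm42031 (−1.29) shares 71.2% of its 31-base words with other genes, most of all with Gm43305, so that its count is uncertain. Over the alternatives tried, Nav2 missed the adjusted p in 12 of 17 and H1fx in 8 of 17.

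B-cell and MHC class II genes had fold changes below 0 in every member, without calls. None of 20 B-cell markers was called, with a median of −0.70, and their summed level was 5985 and 3701 CPM in WT and 2591 to 3248 CPM in het. The 10 MHC class II genes had a median of −0.66 with 0 called. The size of these differences rested largely on WT replicate 1. Without it Cd79a was at −0.20 and Cd74, the invariant chain of MHC class II, at −0.33, against −0.65 and −0.74 with all libraries, and without WT replicate 2 both passed the edgeR adjusted p (−0.99 and −1.06). Spib and Pou2af1, B-cell transcription regulators, were the only members of either list to pass the adjusted p. Plasma-cell genes split the het libraries instead: Jchain, the joining chain of secreted antibodies, was at 88.2 and 105 CPM in WT and at 0.497, 2.29 and 268 CPM in het, with replicate 3 far above the others. The cell cycle list had a median of −0.43 and 0 of 22 called, regulatory T-cell genes −0.25 and 0 of 14, macrophage and dendritic cell genes −0.74 and 0 of 9, interferon-induced genes 0.15 and 0 of 28, and immediate early and heat shock genes, a sign of handling, −0.08 and 0 of 18.

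**Figure D3:**
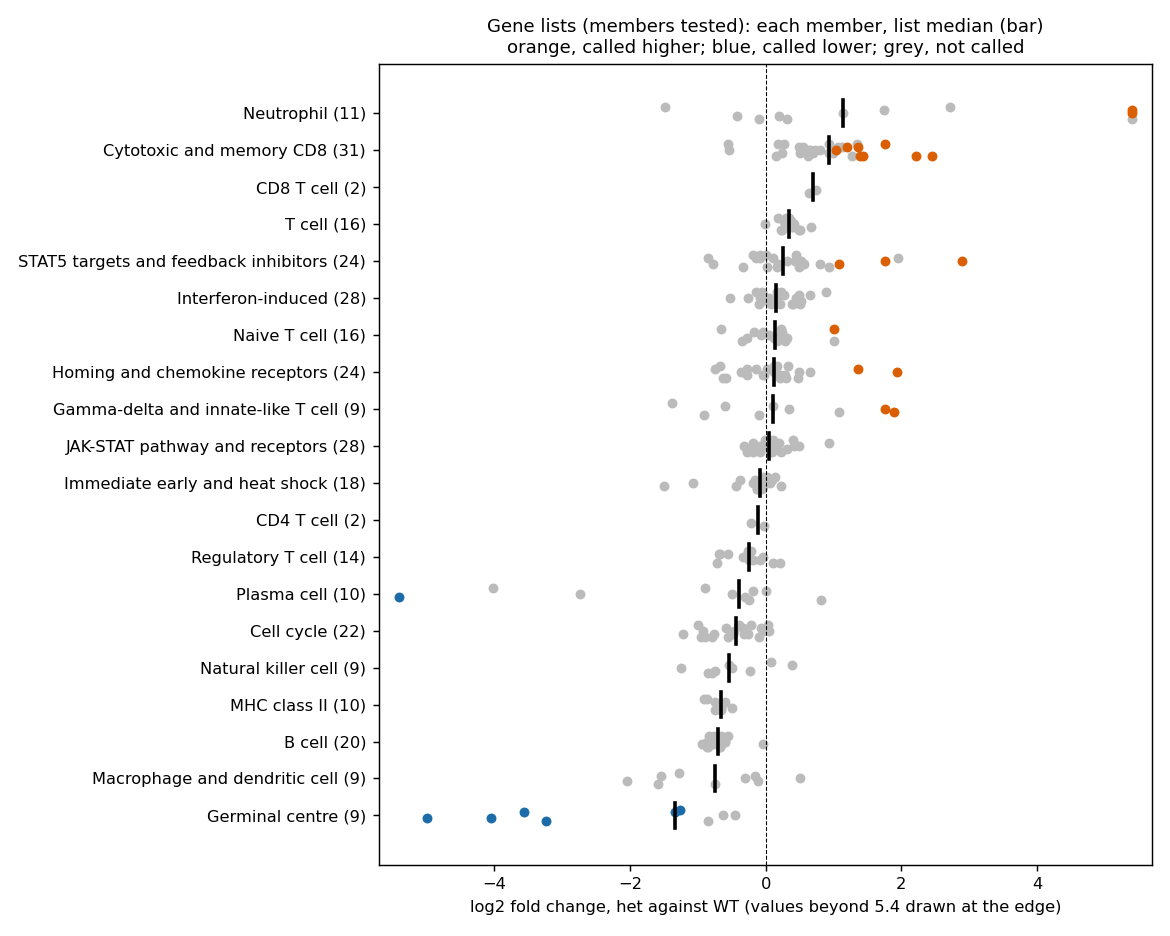
Log2 fold change of het against WT (x axis) for each tested member of 20 gene lists (y axis, number tested in brackets), with the list median as a bar and the median of all genes as a dashed line. Called genes (orange higher, blue lower) gather in the cytotoxic and memory CD8 list, with 8 of 31, and in the germinal centre list, with 6 of 9, whereas B-cell and MHC class II genes lie below 0 without being called. The lists were written with earlier results of these data known.

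The genes called in opposite directions also came from different barcodes. Of the WT UMIs of a gene called higher, a median of 83.7% lay in barcodes with a TCR, and 40 of 41 such genes with WT UMIs had more than 50% there. Genes called lower had a median of 9.24%, and 25 of 28 had under 50%. Of all UMIs, 57.7% and 70.7% lay in such barcodes in WT and 75.5% to 82.0% in het. The fit was therefore repeated on barcodes with a TCR and on the rest.

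Within barcodes with a TCR, 83 of 10627 genes (0.781%) were called, 38 higher (0.358%) and 45 lower (0.423%), and 34 of them had also been called in the whole node (27 higher, 7 lower). Ccl5 was at 200.2 and 142 CPM in WT and at 848, 638 and 1050 CPM in het (2.37, SE 0.204, edgeR adjusted p = 0.000241), against 2.22 in the whole node. Gzmm rose by 2.33 (edgeR adjusted p = 0.000464), Drc1 by 2.67 (edgeR adjusted p = 0.000464) and Tbx21 by 1.54 (edgeR adjusted p = 0.00146). The whole-node values were 2.45 for Gzmm and 2.89 for Drc1, and for Cxcr3 (1.16) and Ly6c2 (1.16) they were 1.36 and 1.39. These differences between the sums were not tested. Of the cytotoxic list 9 of 31 were called higher here, with a median of 0.88. Cd8b1, at 541 and 541 CPM in WT and 695, 698 and 712 CPM in het, rose by 0.45 within these barcodes (edgeR adjusted p = 0.0461), and Cd8a, at 0.34, did not pass (edgeR adjusted p = 0.128). The number of calls was 42 without WT replicate 1, 16 without WT replicate 2, 27 without het replicate 1, 48 without het replicate 2 and 137 without het replicate 3.

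Among the 45 genes lower in barcodes with a TCR, a few known from follicular helper T cells, which serve germinal centres, were picked out after their values were seen. Maf, a transcription factor of helper T cells, was at 35.4 and 34.5 CPM in WT and at 13.5, 14.9 and 13.2 CPM in het. Its replicates were tight in both groups, and its difference of −1.24 (SE 0.121, edgeR adjusted p = 0.000464) was the second smallest p of this fit after Ccl5. Pdcd1 was at 14.7 and 14.6 CPM in WT and at 3.41, 4.56 and 6.86 CPM in het (−1.70, SE 0.239, edgeR adjusted p = 0.00364).

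Bcl6, the defining factor of follicular helper T cells, was at 19.4 and 20.5 CPM in WT barcodes with a TCR and at 8.33, 9.11 and 11.3 CPM in het (−1.07, SE 0.181, edgeR adjusted p = 0.0112). Het was below WT with no overlap, as for Maf and Pdcd1. Tox2, another factor of these cells, changed by −2.64 (edgeR adjusted p = 0.0155), Cd200, a surface ligand, by −1.03 (edgeR adjusted p = 0.0203) and Icos, their co-stimulatory receptor, by −0.78 (edgeR adjusted p = 0.0123), which was under 2-fold. Icos also belongs to the regulatory T-cell list, which had a median of −0.55 in these barcodes with 0 of 14 called. Cd4 (−0.30, edgeR adjusted p = 0.286) and Cd40lg (−0.46, edgeR adjusted p = 0.414) did not pass there. Both lay below WT in every het library, so lower levels were not confined to genes of follicular helper T cells. Further genes called lower in these barcodes were Sox4 (−1.001) and Spsb1 (−1.12).

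Some genes called higher in these barcodes had not been called in the whole node. Ccl4, a chemokine, was at 2.07 and 5.60 CPM in WT and at 17.6, 14.9 and 14.7 CPM in het (1.97, SE 0.298, edgeR adjusted p = 0.00582). The receptor genes Klrc1 (1.53, edgeR adjusted p = 0.0426) and Klre1 (1.51, edgeR adjusted p = 0.0141), Plac8 (1.27, edgeR adjusted p = 0.0113) and Tcrg-C1 (2.17, edgeR adjusted p = 0.0220), a constant region of the gamma-delta receptor, rose as well. Cd163l1, which had also been called in the whole node, was at 2.85 and 4.20 CPM in WT and at 18.3, 13.5 and 23.5 CPM in het (2.30, SE 0.250, edgeR adjusted p = 0.000513).

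Of the 20 B-cell markers 4 were also called lower in barcodes with a TCR, beside 0.423% of all genes tested there. The list median in these barcodes was −0.97. Ebf1, a B-cell factor, was at 17.1 and 13.9 CPM there in WT and at 5.76, 4.89 and 6.37 CPM in het (−1.36, edgeR adjusted p = 0.00539), against 325 to 515 CPM in barcodes without one. Cd79a, a chain of the B-cell receptor, was at 111 and 113 CPM in WT and at 39.2, 40.3 and 106 CPM in het. Het replicate 3 thus matched WT in Cd79a. With only the 92.3% to 97.0% of such barcodes kept that held no UMI of 4 B-cell genes, Cd79a among them, an alternative chosen after seeing the data, 47 genes were called, 32 higher and 15 lower, of which 43 were among the 83. Ccl5 (2.35), Maf (−1.23), Pdcd1 (−1.63) and Bcl6 (−1.09) stayed past the thresholds, and Ebf1 (−0.35, edgeR adjusted p = 0.916) did not.

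In barcodes without a TCR, which hold B cells, other cells and T cells whose receptor was missed, 7 of 9882 genes (0.0708%) were called. Those higher were Il2rb (1.10, edgeR adjusted p = 0.0206) and Camp, and those lower were Basp1, Gcsam, Mybl1, Ighg1 and 1 antibody segment. Basp1 was at 65.7 and 84.7 CPM in WT and at 7.93, 15.1 and 13.8 CPM in het (−2.72, edgeR adjusted p = 0.00276). Gcsam was at 13.8 and 18.3 CPM in WT and at 0, 1.56 and 0 CPM in het (−4.69, edgeR adjusted p = 0.0206). General B-cell markers differed little in these barcodes: Cd79a was at 3833 and 3165 CPM in WT and at 3710, 3290.3 and 3789 CPM in het, Cd74 differed by −0.06, and the 20 B-cell markers had a median of −0.05. The germinal centre list had a median of −2.25 over 8 tested genes in the same barcodes, with 1 called. Leaving out a library moved the count of 7 to 45 without WT replicate 1, 49 without WT replicate 2, 1 without het replicate 1, and 16 and 17 without homo replicates 1 and 2.

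Whether the effect of the edit differed between both kinds of barcodes was tested directly, as an interaction. Of 10951 genes 159 (1.45%) passed, 41 with a more positive effect in barcodes with a TCR (0.374%) and 118 with a more negative one (1.08%). Ccl5 was among the former (difference of 1.09, edgeR adjusted p = 0.00281), as were Cd163l1 (2.05, edgeR adjusted p = 0.0132) and Basp1 (1.90, edgeR adjusted p = 0.00779), which fell more strongly in barcodes without one. Of 22 cell cycle genes 8 were in this group. Mki67, a marker of dividing cells, was at 42.0 and 97.9 CPM in WT and at 4.48, 16.6 and 30.98 CPM in het among barcodes without a TCR, and at 15.001 and 37.2 CPM against 20.1, 23.1 and 20.6 CPM among those with one (difference of 2.34, edgeR adjusted p = 0.00145), though it was called in neither fit. Of the 118, 34 were receptor or antibody genes and 10 were among the 20 B-cell markers. The count was 19 without het replicate 1 and 78 without het replicate 2.

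**Figure D4:**
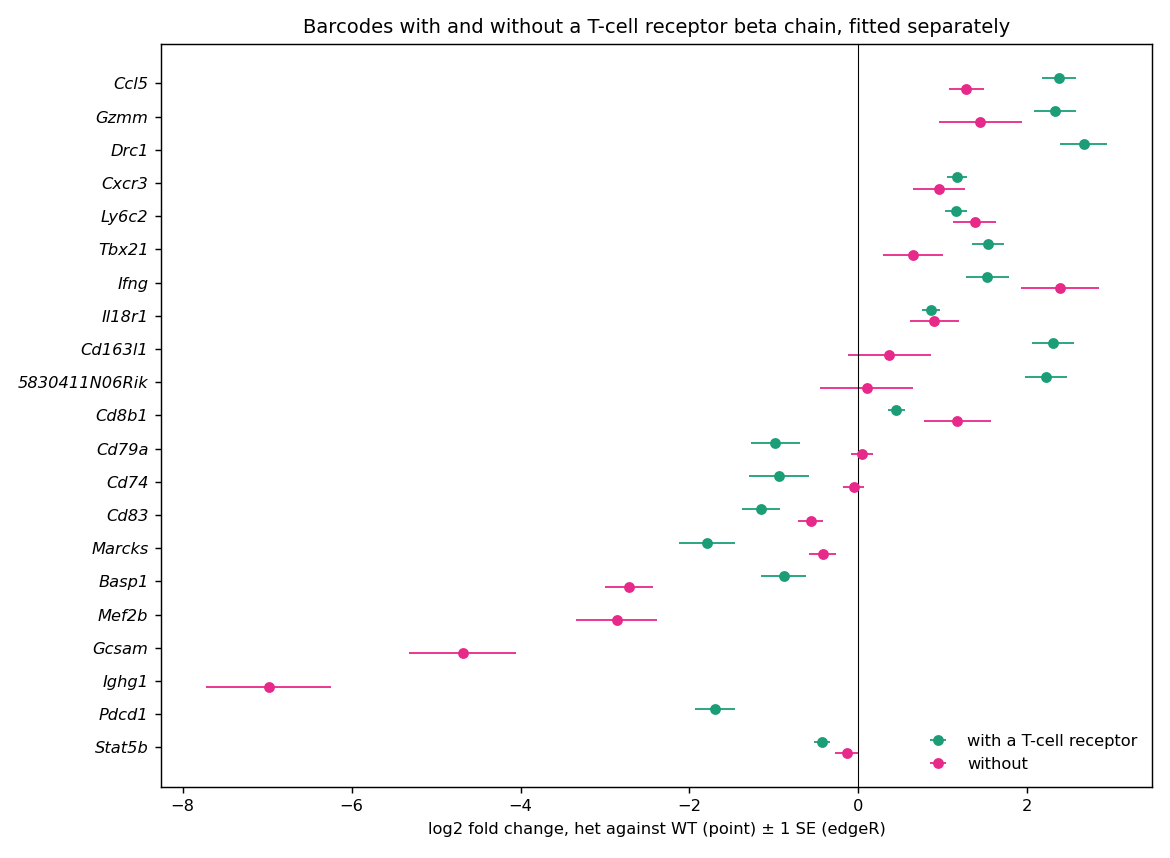
Log2 fold change of het against WT (x axis, point ± 1 SE from edgeR) for 21 genes (y axis), in barcodes with a TCR beta chain (green) and without (pink), with no point where a gene was too low to be tested. Ccl5 rose by 2.37 and differed by 1.28 in the 2 sets, Basp1 by −0.88 and −2.72, and Cd79a by −0.98 and 0.04.

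A second edited allele was compared with the first directly, homo against het. No gene was called by edgeR (0%), with 540 genes at an unadjusted p under 0.05. DESeq2 called 2, Cd163l1 (1.21) and Myo6 (1.19). Between het and homo Ccl5 differed by 0.96 (SE 0.172, edgeR adjusted p = 0.826) and Ly6c2 by 0.43 (SE 0.101, edgeR adjusted p = 0.870). The 43 genes called higher in het had a median log2 fold change of 1.46 in het and 1.87 in homo, and the 28 called lower of −2.49 and −1.95. Both comparisons share the WT libraries, and the genes were chosen on the first, so the likeness of these medians is in part built in. Between homo and het the medians were 0.43 and 0.13, beside −0.0029 over all genes tested, and the het libraries that chose the genes enter here too. Cd163l1 was at 41.3 and 33.8 CPM in homo, above all het libraries (highest 20.2 CPM), and Myo6 at 27.1 and 26.3 CPM, above a highest het value of 13.2 CPM. Basp1 differed by −0.27 (SE 0.260) and Pdcd1 by −0.25 (SE 0.348) between homo and het. Without homo replicate 1, 13 genes were called between homo and het, of which 12 were antibody segments that were higher and 1 was Camp, which was lower.

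**Figure D5:**
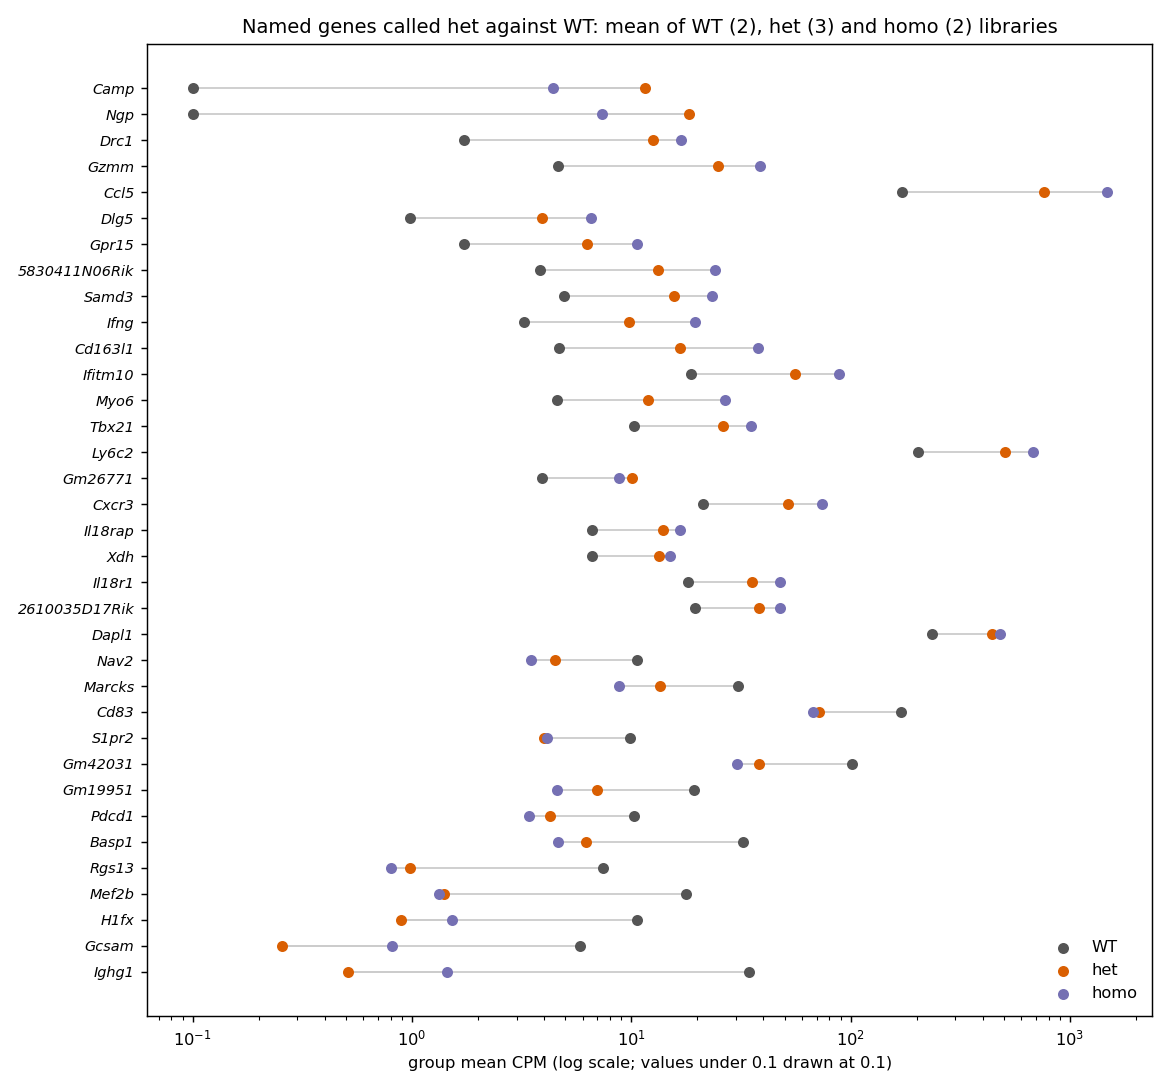
Group mean in CPM (x axis, log scale, values under 0.1 drawn at 0.1) of WT (2 libraries), het (3) and homo (2) for 35 named genes called het against WT (y axis). For most genes called higher the homo mean lies beyond the het mean, whereas for Mef2b and Cd83 the het and homo means nearly coincide.

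Promoters of the genes called were searched for the STAT5 element, TTC followed by any 3 bases and GAA, which reads the same on both strands, in windows from 250 bases before to 50 after each RefSeq start (GRCm38.p6). Of all 32851 windows 8.30% held it. Among genes called higher, 35 of 43 were matched and 7 of their 46 windows (15.2%) held it, which are 6 genes since the overlapping windows of Ctla2a hold the same element, and among genes called lower 15 of 28 were matched and 1 of 21 windows (4.76%) did. The 1 window of a gene called lower belongs to Gm19951. The windows below, on the strand of each gene, were chosen after values were seen, to show a cytotoxic gene, a cytokine receptor gene and Bcl6. Bcl6 was not called in the whole node and is not part of these counts. Capitals mark the element.
Gzmm (chr10:79688770-79689069, plus strand): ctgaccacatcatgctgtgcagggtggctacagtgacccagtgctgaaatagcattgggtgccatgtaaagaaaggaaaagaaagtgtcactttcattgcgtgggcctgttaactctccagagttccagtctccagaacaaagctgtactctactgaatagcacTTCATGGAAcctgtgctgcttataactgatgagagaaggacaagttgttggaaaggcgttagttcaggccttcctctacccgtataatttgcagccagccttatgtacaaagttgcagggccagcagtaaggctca
Il18r1 (chr1:40465756-40466055, plus strand): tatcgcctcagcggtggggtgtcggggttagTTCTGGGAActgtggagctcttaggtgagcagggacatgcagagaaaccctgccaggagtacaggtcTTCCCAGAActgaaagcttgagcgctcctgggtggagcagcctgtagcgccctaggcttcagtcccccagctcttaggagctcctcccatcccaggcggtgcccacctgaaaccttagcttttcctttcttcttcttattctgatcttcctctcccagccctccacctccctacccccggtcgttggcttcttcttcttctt
Bcl6 (chr16:23981234-23981533, minus strand): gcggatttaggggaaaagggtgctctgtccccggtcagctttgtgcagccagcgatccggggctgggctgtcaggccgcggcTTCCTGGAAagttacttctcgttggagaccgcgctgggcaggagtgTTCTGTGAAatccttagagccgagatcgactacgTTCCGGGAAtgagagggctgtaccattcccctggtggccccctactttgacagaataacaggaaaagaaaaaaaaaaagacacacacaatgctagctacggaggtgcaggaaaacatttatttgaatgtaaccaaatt
Gzmm held 1 match, Il18r1 2 and Bcl6 3 in the window shown. These are matches of letters, and binding was not measured in these libraries.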

How the data were processed

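Cells of LN were loaded on a 10x Genomics Chromium controller. By the labels the kit read 3′ ends, whereas the study's methods give a 5′ kit with enrichment of receptors. What was deposited are raw UMI counts for each gene and barcode from Cell Ranger (5.0 per the labels, 5.0.0 per the file headers, another version per the methods), aligned by the authors to GRCm38. UMI counts were summed per library over all deposited barcodes, with no filter on cells and no removal of doublets. For the split, barcodes with a productive TCR beta chain in the TCR library of the same title were summed apart.

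All 7 LN libraries (WT 2, het 3, homo 2) entered 1 model per set of sums, with the quasi-likelihood F test of edgeR 4.0.16 (limma 3.58.1, R 4.3.3), TMM scaling, filterByExpr and Benjamini-Hochberg adjustment over all genes tested. Calls needed an adjusted p below 0.05 together with a log2 change beyond 1 in either direction. SE is the log2 change over the root of the F statistic. Shares were compared with exact permutation tests (scipy 1.17.1 and pandas 2.3.3 in Python 3.11.15). DESeq2 1.42.0, other scalings, filters, cell filters, depths and left-out libraries were alternatives. The calling procedure was tested on simulated counts, but no outcome is given here, so this lends the calls no support.

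Named were Stat5b and Stat5a, the 15 genes with the largest rise and the 10 with the largest fall among called genes with no overlap and a mean of at least 10 CPM in the higher group (leaving out receptor, antibody, sex-linked, ribosomal and mitochondrial genes), then all called members of the gene lists and, of lists without one, the 2 most abundant. Members and lists were chosen with earlier results of these data known, and 1 list holds genes called earlier in them. Of 32285 gene identifiers 32158 matched GENCODE vM21. Some genes are not reported here, though counts include them. Intervals and floors cover counting error only.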

Additional observations from a re-analysis of the deposited data

Results flagged for a closer look

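Effects of the edit that differed between barcodes with and without a TCR, by the interaction test, were found for 159 of 10951 genes. Among the named genes given here the difference (with minus without, log2, with its edgeR adjusted p) was 0.82 for Hmgb2 (0.00159), 1.09 for Ccl5 (0.00281), 1.90 for Basp1 (0.00779), 2.05 for Cd163l1 (0.0132) and 0.93 for 2610035D17Rik (0.0246), more positive in barcodes with a TCR. It was more negative there for the B-cell genes Cd79b (−0.77, 0.00905) and Cd79a (−1.10, 0.0126), the MHC class II genes H2-Aa (−1.12, 0.0179) and Cd74 (−1.06, 0.0313), and Cd83 (−0.63, 0.0480). Further such genes were Marcks (−1.36, 0.0302), Gm19951 (−1.56, 0.0393), Tyrobp (−1.5005, 0.0462) and Ifi27l2a (−0.49, 0.0470). Beside the B-cell genes stands the level of Cd79a in barcodes with a TCR, 111 and 113 CPM in WT and 39.2, 40.3 and 106 CPM in het, and what free or co-captured B-cell RNA contributes to it was not tested.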

How the results depend on the processing

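The 71 calls of het against WT became 288 with no filter on low counts, 38 with at least 10 CPM in 2 libraries, 30 with both shallow libraries left out and 145 with no fold minimum, and ran from 23 to 203 when 1 library was left out. The shallow libraries were het replicate 3 and homo replicate 1. With 1 sample left in WT or homo, the lone library is assumed to vary like the other groups. The 36 named genes called passed the adjusted p, whatever their fold, in 485 of 638 values over 18 alternatives, missed it in 153 and reversed in 0, and 10 of them passed it in all. For homo against het, 0 became 2 with DESeq2, 54 with no filter, 16 with both shallow libraries left out and 0 to 13 with 1 library left out. In barcodes with a TCR, 83 became 48 with DESeq2, 224 with no filter, 165 with no fold minimum, 47 with barcodes holding B-cell UMIs left out (chosen after seeing the data) and 16 to 137 with 1 library left out. Without a TCR, 7 became 135 with no filter and 1 to 49 with 1 library left out. The 159 interactions became 357 with no filter and 19 to 220 with 1 library left out. The difference in TCR-bearing barcodes ran from 5.09 to 20.2 points and that in mitochondrial UMIs from 0.175 to 0.438 points. The cause of these changes was not tested.

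Replicate numbers did not pair the samples: deviations of same-numbered libraries correlated between −0.159 and 0.0754. As a replicate block they gave 25 calls for het against WT, 0 for homo against het, 112 with a TCR and 35 without one, while the interaction fit already holds the library as a block.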
